A study of Homo sapiens with 12 samples.

Results

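Oxidative phosphorylation (OXPHOS) is the last stage of respiration in mitochondria. Complexes I and II pass electrons from NADH and succinate to ubiquinone, complex III passes them on to cytochrome c, and complex IV hands them to oxygen. Complexes I, III and IV pump protons while doing so, and complex V, the ATP synthase, uses the proton gradient to make ATP. Complexes I, III, IV and V are built from subunits encoded both in the nucleus and in mitochondrial DNA (mtDNA), whereas complex II is encoded in the nucleus alone. The OXPHOS subunits were taken from the count table by gene name, as rows that start with NDUF and A, B, C, S or V and a number, SDHA to SDHD, UQCR, COX4 to COX8, ATP5, or the MT-ND, MT-CO, MT-CYB and MT-ATP symbols. Names ending in P and digits, names with -AS or -DT, and NDUFA4L2 were left out, which removed 32 rows, 28 of them with pseudogene-like names. MT-ATP6 and MT-ATP8 end in P and a digit but are named by the pattern itself, so they were kept. This gave 94 genes of 20771, with 81 encoded in nuclear DNA and 13 in mtDNA. By complex, 43 belonged to complex I, 4 to II, 10 to III, 16 to IV and 21 to V, with NDUFA4 placed in complex IV. The name pattern uses no measured value, though it was written with earlier results of these data known. The names miss CYC1 of complex III and NDUFAB1 of complex I, whose values are given with the other mitochondrial gene lists.

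EW8-RRM1-KO and TC71-RRM1-KO are Ewing sarcoma cell lines whose own RRM1 gene was knocked out with CRISPR/Cas9. RRM1 is the catalytic subunit of ribonucleotide reductase, the enzyme that makes deoxyribonucleotides. Both lines were cloned from single cells, and the sources used here do not say whether the libraries of a line come from 1 clone. Both carry a codon-optimized, Cas9-resistant RRM1 transgene under doxycycline control. The 12 libraries comprised 3 replicates of each line labelled 0 h, with doxycycline present, and 3 labelled 48 h, after 48 hours without it. The comparison asks how subunit transcripts differ once RRM1 is lost. Doxycycline, a known inhibitor of mitochondrial protein synthesis, was present at 0 h and absent at 48 h, so its own effect and that of losing RRM1 cannot be told apart. The labels do not say that replicates came from separate cultures, so p-values measure the spread between these libraries, which may be technical.

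Libraries held 18468485 to 35698991 counts on genes. The RRM1 row had 166 to 317 counts in EW8 at 0 h and 1201 to 1514 at 48 h, and 316 to 422 and 674 to 778 in TC71. It was higher at 48 h in both lines (log2 fold changes 2.88 and 0.65). The row stands for the endogenous gene, and because the transgene is recoded it cannot check the labels, so 0 h and 48 h below mean the libraries labelled so. The cause of the rise was not tested. All 8 Ewing sarcoma markers examined (CD99, NKX2-2, NR0B1, FLI1, STEAP1, PAPPA, LIPI and CCND1) were present and summed to between 1873 and 2331 CPM (counts scaled to the size of the library) in every library. CCND1 made up most of that sum, with group means of 1097 to 1500 CPM, and the markers moved both ways, with 6 upregulated and FLI1 (-0.72) and CD99 (-0.45) downregulated in EW8, and 6 upregulated and FLI1 (-0.41) downregulated in TC71. Of 10 markers of leukocytes, endothelium, fibroblasts, epithelium and liver, CD3E, CD68, PECAM1 and VWF had no row. The other 6 (PTPRC, COL1A1, LUM, EPCAM, KRT8 and ALB), of which 4 could be tested and 3 were upregulated in each line, summed to 16.1 to 18.3 CPM in EW8 at 0 h and 44.5 to 52.2 at 48 h, and to 25.8 to 28.3 and 38.8 to 46.6 in TC71. The nuclear RNAs MALAT1 and NEAT1 summed to 70.3 to 83.2 and then 164 to 177 CPM in EW8, and to 125 to 163 and then 89.0 to 168 CPM in TC71. The part of these RNAs in the results below was not tested. Values are relative to the RNA of each library, and fewer cells with a transcript and less of it per cell cannot be told apart.

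Promoters of nuclear subunit genes are known to bind ETS-family factors, nuclear respiratory factor 1 (NRF1) and YY1, a known route of shared control over genes that here lie on 22 nuclear chromosomes. Windows from 250 bases before to 50 after the start (RefSeq, GRCh38.p14) were found for 66 of the 81 nuclear genes. The ETS core CCGGAAG, read on both strands, lay in 30.3% of these windows and 10.3% of all 35116 windows. The NRF1 core GCATGCG lay in 19.7% against 3.91%, and the YY1 core ATGGCGG in 28.8% against 5.55%. At least 1 of these cores lay in 36 of 66 windows (54.5%), against 17.5% of all windows and 21.6% of the 22198 windows of protein-coding genes. A match describes letters in a window and is not evidence of binding. The bases just upstream of the start are shown for 4 genes that recur below, cut where the GENCODE gene begins, with the cores in capitals. COX5B and NDUFA1 were among the nuclear genes that fell most in EW8, and SDHD differed most between the lines at 0 h. COX7C fell most of the nuclear genes in EW8 and holds none of these letters in the stretch shown.
COX5B (chr2:97645912-97646061, + strand): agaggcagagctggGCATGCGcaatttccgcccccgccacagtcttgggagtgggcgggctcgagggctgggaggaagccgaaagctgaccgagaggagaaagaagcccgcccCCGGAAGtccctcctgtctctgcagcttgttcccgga
NDUFA1 (chrX:119871682-119871831, + strand): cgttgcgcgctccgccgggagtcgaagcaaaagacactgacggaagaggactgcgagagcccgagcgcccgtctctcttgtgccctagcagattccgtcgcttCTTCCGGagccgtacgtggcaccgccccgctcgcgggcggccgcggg
SDHD (chr11:112086723-112086823, + strand): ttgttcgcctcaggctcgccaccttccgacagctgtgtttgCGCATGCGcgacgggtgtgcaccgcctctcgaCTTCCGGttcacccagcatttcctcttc
COX7C (chr5:86617791-86617927, + strand): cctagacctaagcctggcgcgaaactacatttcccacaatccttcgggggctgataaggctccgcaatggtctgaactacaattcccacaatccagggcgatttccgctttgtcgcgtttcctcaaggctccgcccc

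The 13 mtDNA genes are transcribed as long polycistronic RNAs and cut apart, mostly at the tRNAs between them. MT-ATP8 and MT-ATP6 have no tRNA between them and share 46 bases in different reading frames, on the + strand of the mitochondrial chromosome of hg38 from 8527 to 8572. The stretch is shown because these genes fell most of all members in EW8. The capitals at its start are the start codon of MT-ATP6, and those at its end the stop codon of MT-ATP8.
MT-ATP8 and MT-ATP6 overlap (chrM:8527-8572, + strand): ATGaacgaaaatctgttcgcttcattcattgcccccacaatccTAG
MT-ND4L and MT-ND4 also overlap, by 7 bases. Reads in these overlaps can be given to either gene or to none, and the counting rule is not given in the sources used here.

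The mtDNA genes were far more abundant than the nuclear ones. Over all 12 libraries, the level per kilobase of canonical transcript had a median of 2033 CPM for the 13 mtDNA genes (775 to 7920) and 88.9 CPM for the 81 nuclear genes (0.124 to 935). MT-CO2 led with 7920 CPM per kilobase, and ATP5F1B, the catalytic beta subunit of ATP synthase, was the highest nuclear gene with 935, above MT-ATP8 at 909 and MT-ND6 at 775. In EW8 at 0 h, the 13 mtDNA genes took 3.84, 3.93 and 3.65% of all counts and the 81 nuclear genes 1.19, 1.19 and 1.22%. In TC71 at 0 h the shares were 4.09, 3.96 and 4.81% for mtDNA and 1.09, 1.09 and 1.07% for the nucleus. A polyA-selected library weights mtDNA and nuclear transcripts by their tails as well, so the ratio between the genomes is that of the libraries.

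In EW8-RRM1-KO cells, OXPHOS transcripts of both genomes were lower at 48 h. Of the 92 members with enough counts to test, 70 were downregulated (edgeR quasi-likelihood test over all 16515 genes, Benjamini-Hochberg adjusted p below 0.05), among them 61 of 79 nuclear and 9 of 13 mtDNA genes. The background was 31.6% of all genes tested. NDUFA13 was the only member upregulated, where 37.0% of all genes were, and the count of 1 became 2 without replicate 2 of 48 h. The median log2 fold change was -0.36 for the nuclear and -0.63 for the mtDNA members, beside 0.03 for all genes. Changes were mostly under 2-fold, and only MT-ATP6 and MT-ATP8 passed that size downward (3.35% of all genes did) and NDUFA13 upward (13.9%). The 3 libraries of each time did not overlap for 74 members that were lower at 48 h, where the background was 33.2%, and for 2 that were higher, where it was 37.9%.

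**Figure D1:**
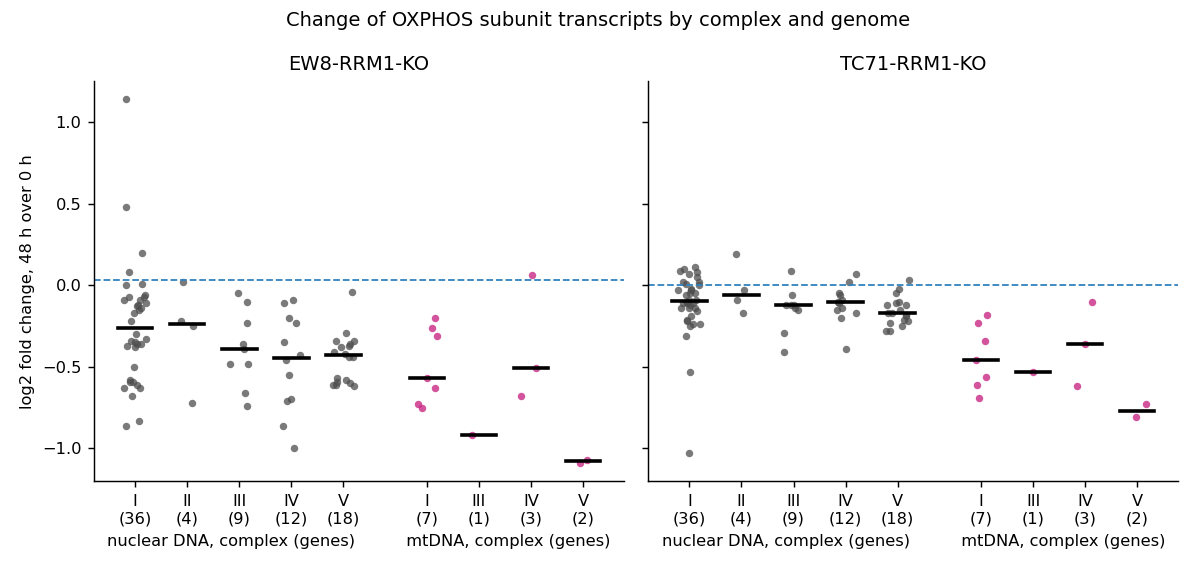
Log2 fold change of 48 h over 0 h (vertical axis) for each of the 92 tested subunits, by complex and by genome (horizontal axis, with the number of genes), in EW8-RRM1-KO (left) and TC71-RRM1-KO (right). Points are genes, black bars are medians and the dashed line is the median of all 16515 genes. Nuclear medians lie between -0.24 and -0.45 in EW8 and between -0.06 and -0.17 in TC71, and mtDNA medians lie lower in both.

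All 5 complexes took part in EW8. The nuclear median was -0.26 in complex I (22 of 36 downregulated), -0.24 in complex II (3 of 4), -0.39 in complex III (8 of 9), -0.45 in complex IV (11 of 12) and -0.43 in complex V (17 of 18). The mtDNA medians were -0.57 for the 7 genes of complex I, -0.92 for MT-CYB of complex III, -0.51 for the 3 genes of complex IV and -1.08 for the pair in complex V. Summed over their members, nuclear OXPHOS transcripts came to 12906, 12765 and 13288 CPM at 0 h and to 9968, 10015 and 9731 CPM at 48 h. This is 12986 ± 271 against 9905 ± 153 (SD, n = 3 libraries each), a change of -23.7%. The mtDNA sum went from 41099 ± 1225 to 29567 ± 2186 CPM (-28.1%, n = 3 each). The ratio of mtDNA to nuclear counts was 3.22, 3.30 and 2.99 at 0 h and 2.95, 2.74 and 3.27 at 48 h, with overlapping groups. By complex, the ratio in complex I also had overlapping groups, with 5.32 ± 0.263 and 4.66 ± 0.401. The mtDNA to nuclear ratio went from 0.615 ± 0.0213 to 0.394 ± 0.0310 in complex V and from 2.04 ± 0.0796 to 1.35 ± 0.112 in complex III, both without overlap, while in complex IV it was higher at 48 h, with 10.8 ± 0.523 against 12.2 ± 1.19. The nuclear sum of complex IV changed by -29.0% and its mtDNA sum by -19.5%. Sums and ratios over the members were given no test.

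TC71-RRM1-KO cells changed less in the nuclear genes. There, 44 of 92 members were downregulated, against a background of 19.2%, and SDHA and NDUFS3 were upregulated, against 22.9%. The nuclear count was 36 of 79 downregulated, with a median of -0.12, and the mtDNA count was 8 of 13, with a median of -0.53, beside a median of 0 over all genes. By complex, the nuclear medians were -0.10, -0.06, -0.12, -0.10 and -0.17 for I to V, with 11 of 36, 1 of 4, 5 of 9, 5 of 12 and 14 of 18 genes downregulated. Only NDUFV2, a row of 3 to 19 counts, was past 2-fold, where 0.854% of all genes were downregulated to that extent, and no member rose past it, where 3.26% of all genes did. The nuclear sum was 10778, 10765 and 10595 CPM at 0 h and 9726, 9822 and 10058 CPM at 48 h (10713 ± 102 and 9869 ± 170, a change of -7.88%). The mtDNA sum was 40301, 38903 and 47395 CPM at 0 h and 34571, 34803 and 23181 CPM at 48 h. Replicate 3 stood apart in both groups, highest at 0 h and lowest at 48 h. The nuclear RNAs MALAT1 and NEAT1 had the same order in TC71, with 47.1, 42.2 and 58 CPM and then 57.4, 62.1 and 30.5 CPM for MALAT1, and 86.9, 83.2 and 105 CPM and then 99.7, 106 and 58.6 CPM for NEAT1. The part of this shift between libraries in the TC71 mtDNA change was not tested. The change of -26.9% became -17.8% without replicate 3 of 48 h, with groups that still did not overlap. The ratio of mtDNA to nuclear counts was 3.74, 3.61 and 4.47 at 0 h and 3.55, 3.54 and 2.30 at 48 h, lower without overlap (-20.5%, or -9.98% without replicate 3 of 48 h). By complex, it went from 6.50 ± 0.738 to 4.80 ± 1.05 in I, from 2.09 ± 0.295 to 1.57 ± 0.345 in III and from 0.859 ± 0.0847 to 0.553 ± 0.140 in V, each without overlap. Without replicate 3 of 48 h these changes of -26.2, -24.9 and -35.6% became -16.9, -15.3 and -26.2%. In complex IV the groups overlapped, with 12.6 ± 1.71 and 10.7 ± 2.54. The count of 2 upregulated genes became 5 without replicate 2 of 48 h and 1 without replicate 1 or 3 of 0 h, replicate 1 or 3 of 48 h, or EW8 replicate 1 or 3 of 0 h. With libraries scaled by total counts alone, 22 nuclear genes were downregulated and 4 upregulated. The count of 8 mtDNA genes became 4 without replicate 3 of 0 h, 9 without replicate 3 of 48 h and 2 in a fit of the TC71 libraries alone.

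**Figure D2:**
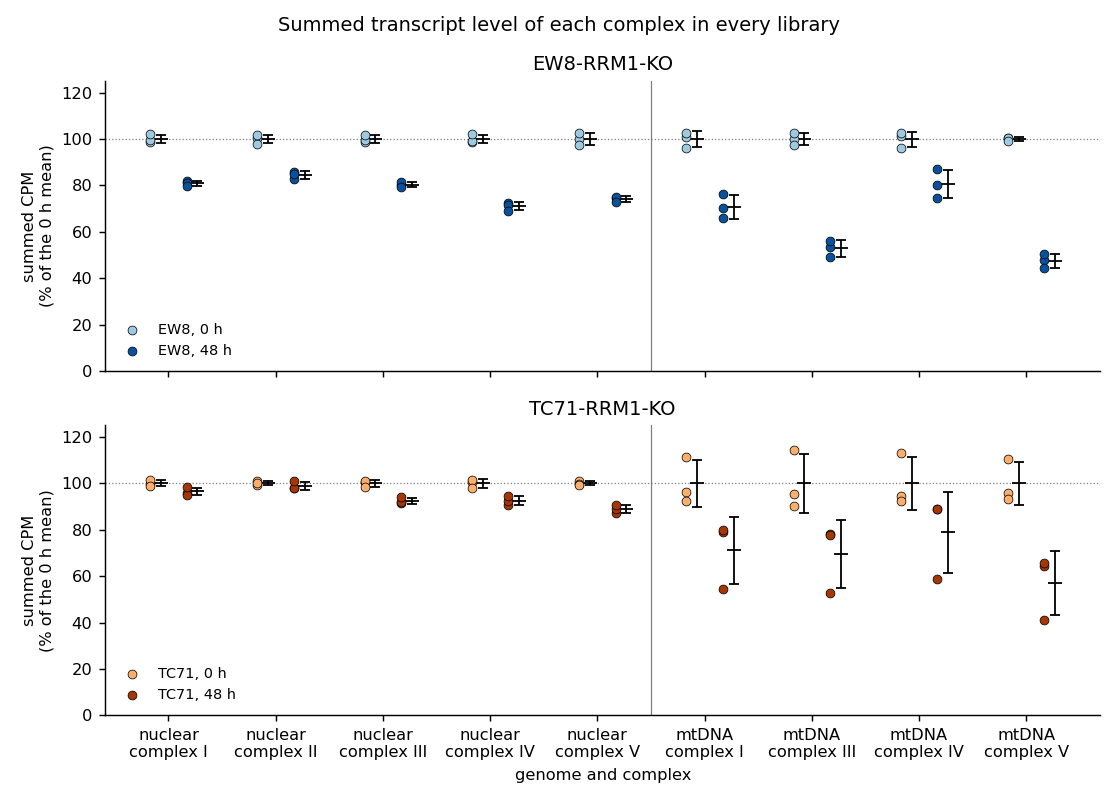
Summed CPM of the members of each complex and genome (horizontal axis) in every library, as a percentage of the 0 h mean of the same line (vertical axis), in EW8-RRM1-KO (upper panel) and TC71-RRM1-KO (lower panel). Each circle is a library, and the bar beside each group is the mean ± SD of 3 libraries. In EW8 each 48 h group lies below its 0 h group, and in TC71 the mtDNA sums of replicate 3 lie apart from the other libraries.

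Among genes called downregulated, 38 were so in both lines. These were 30 nuclear genes, or 49.2% of the EW8 and 83.3% of the TC71 calls, and 8 mtDNA genes, or 88.9% and 100%. Over all genes tested, 2364 were downregulated in both lines, or 45.2% of the EW8 and 74.4% of the TC71 calls. MT-CO2 was the mtDNA gene called in EW8 alone, where it changed by -0.51 (adjusted p = 0.006, standard error 0.13), beside -0.36 in TC71 (adjusted p = 0.0511, standard error 0.13).

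The mtDNA genes changed to unequal extents, and not all were called, with the most negative changes for MT-ATP6 and MT-ATP8 in both lines. MT-ATP6, which forms the proton channel of ATP synthase with the ring of c subunits, measured 3739, 3734 and 3656 CPM in EW8 at 0 h and 1779, 1648 and 1863 CPM at 48 h. The TC71 values were 3799, 3710 and 4389 CPM and then 2555, 2591 and 1626 CPM. The groups were separate in both lines, with log2 fold changes of -1.07 (standard error 0.16, adjusted p = 3.21e-04) and -0.81 (standard error 0.16, adjusted p = 0.00369). MT-ATP8, a small membrane subunit encoded on the same transcript, changed by -1.09 and -0.73. Its ratio to MT-ATP6 stayed within its spread, with 15.2 ± 0.899 counts of MT-ATP6 per count of MT-ATP8 in EW8 at 0 h and 15.4 ± 0.477 at 48 h. MT-CYB, the cytochrome b of complex III, measured 2745, 2819 and 2678 CPM in EW8 at 0 h and 1474, 1347 and 1544 CPM at 48 h. The TC71 libraries gave 2517, 2374 and 3009 CPM and then 2054, 2047 and 1388 CPM, and the log2 fold changes were -0.92 and -0.53 (adjusted p = 5.81e-04 and 0.0229).

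MT-CO1, the catalytic subunit of complex IV that holds its heme and copper centre, did not pass the test. It measured 7477, 7619 and 6834 CPM in EW8 at 0 h and 7587, 6995 and 8222 CPM at 48 h. Values in TC71 were 5858, 5753 and 7495 CPM and then 6786, 6759 and 4269 CPM. The groups overlapped in both lines, with log2 fold changes near 0 (0.06, standard error 0.18, adjusted p = 0.804, and -0.10, standard error 0.18, adjusted p = 0.696). MT-CO3 was downregulated in both lines (-0.68 and -0.62). Of the complex I genes, MT-ND2 (-0.73 and -0.69), MT-ND3 (-0.75 and -0.46), MT-ND4L (-0.63 and -0.61) and MT-ND4 (-0.57 and -0.56) were downregulated in both lines. MT-ND1 (-0.20 and -0.34), MT-ND5 (-0.31 and -0.23) and MT-ND6 (-0.26 and -0.18) did not pass the test in either. All 3 were called downregulated in EW8, at -0.23, -0.34 and -0.29, in a fit of the EW8 libraries alone, and at -0.20, -0.31 and -0.26 without TC71 replicate 3 of 48 h, and the EW8 count of 9 mtDNA genes then became 12 in both cases. MT-ND6 is the only member read from the other strand. With the mtDNA genes left out of the scaling, 9 mtDNA members were called downregulated in EW8 and 8 in TC71, the same counts.

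Shares within the 13-gene sum do not depend on library scaling, though they add to 100% and so constrain each other. The share of MT-CO1 was 18.0, 18.1 and 17.2% in EW8 at 0 h and 25.8, 25.5 and 25.8% at 48 h. In TC71 it was 14.5, 14.8 and 15.8% and then 19.6, 19.4 and 18.4%. MT-ATP6 went from 9.03 ± 0.165% to 5.97 ± 0.103% in EW8 and from 9.41 ± 0.140% to 7.28 ± 0.235% in TC71 (SD, n = 3 each). There were 2.0, 2.04 and 1.87 counts of MT-CO1 per count of MT-ATP6 in EW8 at 0 h and 4.26, 4.25 and 4.41 at 48 h. In TC71 the ratio was 1.54, 1.55 and 1.71 and then 2.66, 2.61 and 2.63. Replicate 3 of TC71, whose mtDNA totals stood apart, had the highest ratio at 0 h (1.71) and a ratio between the other libraries at 48 h (2.63), and the groups did not overlap. In EW8, 8 genes had a lower share at 48 h without overlap, 4 a higher share (MT-ND1, MT-CO1, MT-ND5 and MT-ND6) and MT-CO2 an overlapping one. In TC71, the same 4 genes and MT-CO2 had a higher share, 7 a lower one, and MT-ND3 overlapped.

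**Figure D3:**
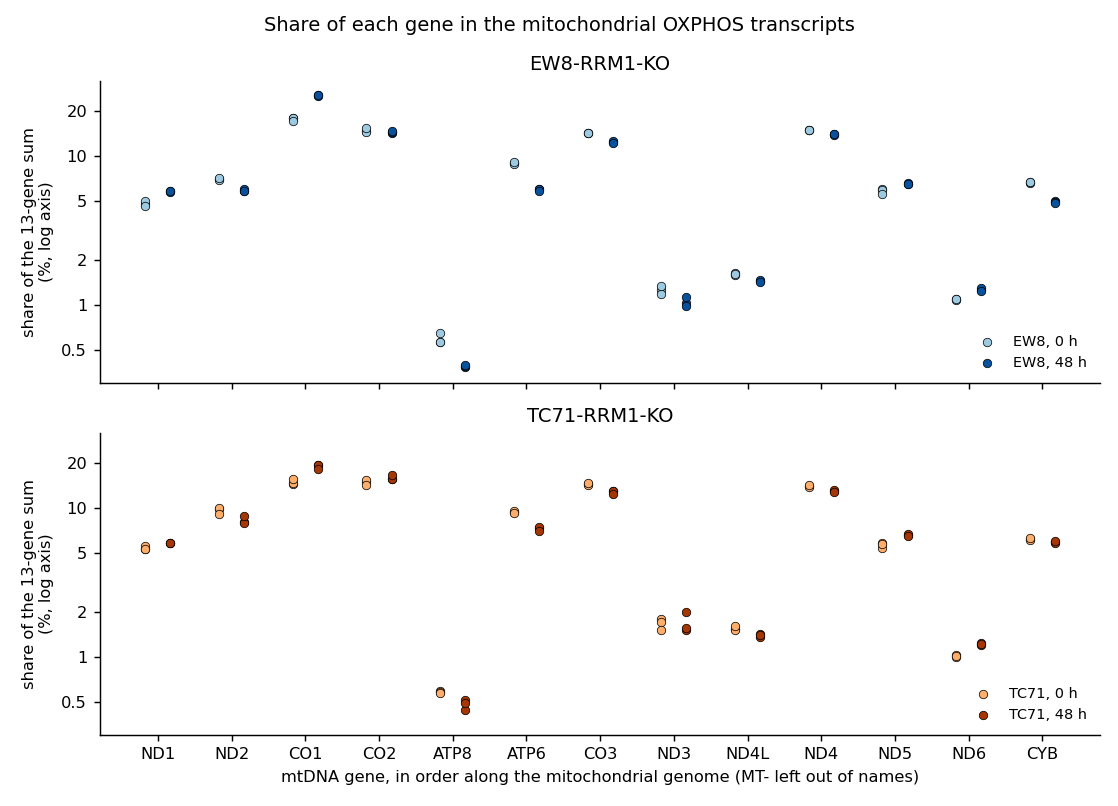
Share of each mtDNA gene in the summed counts of the 13 genes (vertical axis, percent, log axis) for every library, with genes in order along the mitochondrial genome (horizontal axis), in EW8-RRM1-KO (upper panel) and TC71-RRM1-KO (lower panel). Each circle is a library. In both lines the share of MT-CO1 lies higher at 48 h and those of MT-ATP8 and MT-ATP6 lie lower.

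Other mtDNA rows in the table changed in both directions. MT-RNR2, the large ribosomal RNA of mitochondria, measured 1501, 1475 and 1366 CPM in EW8 at 0 h and 2680, 2590 and 2938 CPM at 48 h, so it was upregulated (0.92, adjusted p = 2.09e-04, standard error 0.13). In TC71 it measured 2318 ± 265 and 2540 ± 433 CPM (n = 3 each, adjusted p = 0.462). MT-RNR1, the small ribosomal RNA, changed by -0.15 (adjusted p = 0.277) and -0.48 (adjusted p = 0.00864). MT-TP, the proline tRNA on the strand opposite to MT-CYB, had 27.6, 26.4 and 28.0 CPM in EW8 at 0 h and 136, 153 and 152 CPM at 48 h. In TC71 it had 35.6, 28.8 and 37.2 CPM and then 109, 120 and 108 CPM, so it was upregulated in both lines (2.42 and 1.72). A polyA library is not made to measure tRNAs, and what RNA these reads came from was not tested.

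Nuclear copies of mtDNA genes can take or give reads. The MTATP6P1 row and smaller copies held 14.1 to 15.7% as many counts as MT-ATP6 in every library, and MTATP6P1 changed like it (-1.0 in EW8 and -0.78 in TC71). MTND2P28 held 2.50 to 2.96% of the MT-ND2 counts. For the other mtDNA genes with copies in the table, the copies held at most 0.708%.

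Complex I takes electrons from NADH. Of the 7 nuclear subunits of its catalytic core, which holds the flavin and the iron-sulfur clusters, NDUFS1 (-0.13) was among those downregulated in EW8, and the median over the 7 was -0.06. Of its 29 nuclear accessory subunits, which surround the core, 20 were downregulated, with a median of -0.34. NDUFA1, an accessory subunit of the membrane arm encoded on the X chromosome (119871832 to 119876662, + strand), measured 91.7, 83.2 and 95.7 CPM in EW8 at 0 h and 50.4, 52.5 and 46.5 CPM at 48 h. The TC71 values were 75.9, 74.4 and 77.5 CPM and then 61.4, 69.8 and 68.2 CPM. Groups were separate in both lines, and the fall was deeper in EW8 (-0.86, standard error 0.06, adjusted p = 3.09e-15) than in TC71 (-0.19, standard error 0.05, adjusted p = 0.005), with a difference of -0.67 (adjusted p = 1.50e-08). NDUFB4, another membrane-arm subunit, changed by -0.83 and -0.21, and NDUFS6 by -0.68 and -0.14, the latter not called. NDUFS3, another core subunit, measured 134 ± 1.95 and 135 ± 3.33 CPM in EW8 and was upregulated in TC71, from 113 ± 4.19 to 122 ± 3.40 CPM (log2 fold change 0.11, adjusted p = 0.0296, n = 3 libraries each). Beside NDUFS3, the TC71 core had 1 gene downregulated, NDUFV2, and 5 not called.

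Complex II, succinate dehydrogenase, is also an enzyme of the tricarboxylic acid cycle. Its subunits separated in EW8. SDHA, the flavin subunit that oxidizes succinate, measured 149, 151 and 146 CPM at 0 h and 149, 151 and 154 CPM at 48 h. SDHC, which anchors the enzyme in the membrane, measured 110, 106 and 108 CPM and then 61.8, 66.9 and 68.1 CPM. The groups of SDHC were far apart (-0.72, standard error 0.05, adjusted p = 4.08e-15), and those of SDHA overlapped (0.02, standard error 0.04, adjusted p = 0.639). There were 1.37 ± 0.0417 SDHA counts per SDHC count at 0 h and 2.31 ± 0.0896 at 48 h. SDHB, the iron-sulfur subunit, and SDHD, the other anchor, changed by -0.25 and -0.22 and were downregulated. In TC71, SDHA measured 157, 159 and 154 CPM and then 183, 170 and 183 CPM and was upregulated (0.19, standard error 0.04, adjusted p = 2.85e-04). SDHB was downregulated (-0.17), and SDHC (-0.09) and SDHD (-0.03) were not called. SDHA shares 69.4% of its canonical exon bases with another annotated gene on the same strand that has no row in the table.

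**Figure D4:**
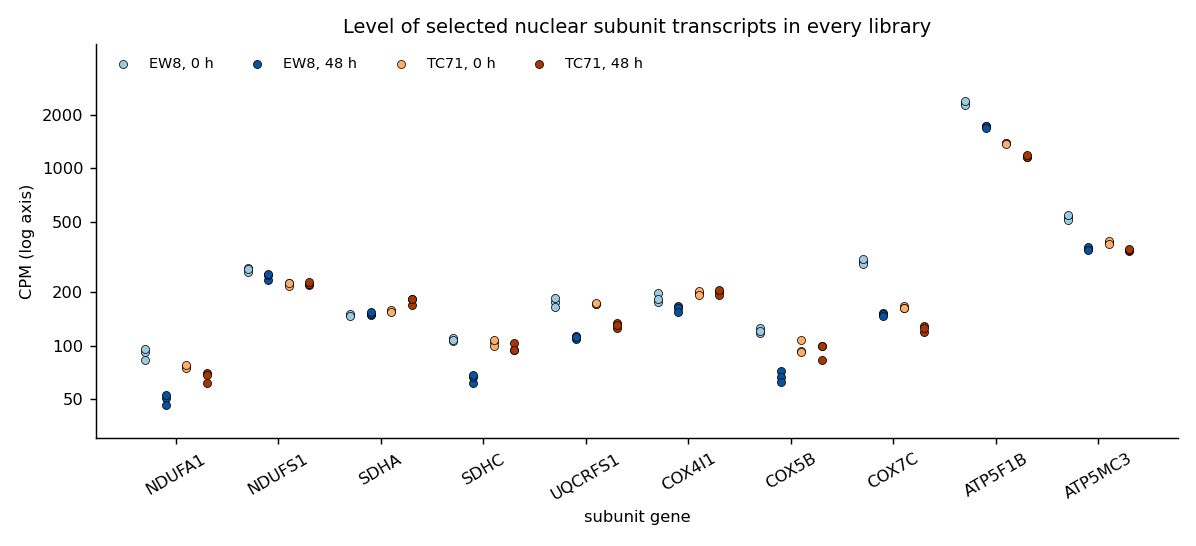
Level in CPM (vertical axis, log axis) of 10 nuclear subunit genes (horizontal axis) in each of the 12 libraries, colored by line and time. Each circle is a library. COX7C, COX5B, NDUFA1 and SDHC lie apart between 0 h and 48 h in EW8, while SDHA overlaps there and lies higher at 48 h in TC71.

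In complex III, 8 of 9 nuclear subunits were downregulated in EW8. UQCRFS1, the Rieske iron-sulfur protein that passes electrons to cytochrome c1, measured 177, 165 and 185 CPM at 0 h and 109, 113 and 112 CPM at 48 h. The TC71 libraries gave 172, 171 and 174 CPM and then 125, 134 and 130 CPM. It fell in both lines without overlap (-0.66 and -0.41, standard errors 0.04, adjusted p = 3.32e-15 and 1.78e-09). UQCR10, a small subunit, changed by -0.74 in EW8 and -0.14 in TC71. The large core proteins moved little, with UQCRC1 at -0.10 in EW8 (downregulated, adjusted p = 0.0351) and 0.09 in TC71 (not called), and UQCRC2 at -0.05 (not called) and -0.15 (downregulated, adjusted p = 0.00285). UQCRH, the hinge protein, changed by -0.48 and -0.12. UQCRHL, an intronless copy on chromosome 1 (15807169 to 15809348), had the same log2 fold changes and held 6.53 to 7.23% of the UQCRH counts in every library, so its reads may be those of UQCRH and its call is uncertain.

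Complex IV, cytochrome c oxidase, had the largest relative change of its nuclear sum in EW8. COX7C, a small subunit of the membrane part encoded on chromosome 5 (86617928 to 86620962, + strand), measured 296, 287 and 309 CPM at 0 h and 152, 150 and 147 CPM at 48 h. Values in TC71 were 167, 162 and 162 CPM and then 120, 129 and 126 CPM. It fell to 149 ± 2.52 CPM in EW8 (-1.0, standard error 0.04, adjusted p = 5.22e-21) and to 125 ± 4.64 CPM in TC71 (-0.39, standard error 0.04, adjusted p = 1.71e-09), each without overlap. COX5B, which binds zinc on the matrix side, measured 118, 125 and 121 CPM in EW8 and then 71.8, 66.4 and 62.2 CPM. In TC71 its groups overlapped, with 93.2, 107 and 92.4 CPM and then 99.3, 82.7 and 99.0 CPM. Its log2 fold changes were -0.86 (adjusted p = 3.21e-09) and -0.05 (adjusted p = 0.557). COX5A (-0.70 and -0.09) and COX6B1 (-0.71 and -0.06), on the matrix and the intermembrane side of the enzyme, were downregulated in EW8 and not called in TC71. COX4I1, a regulatory subunit, changed by -0.20 in EW8 and 0.02 in TC71, the latter not called. NDUFA4, once assigned to complex I, changed by -0.35 and -0.15 and was downregulated in both.

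Several complex IV subunits have tissue-specific isoforms, and the widely expressed ones were those measured here. COX6A1, COX6B1, COX7A2 and COX7B measured 70.4, 126, 147 and 160 CPM on average in EW8 at 0 h. COX6B2, the testis form, had 1 to 12 counts and was not tested. COX4I2, COX6A2, COX7A1, COX7B2 and COX8C had no row in the table. COX7A2 changed by -0.46 in EW8 and -0.20 in TC71. COX7A2L, a relative that helps join complexes III and IV, changed by -0.09 (adjusted p = 0.0468) and -0.14 (adjusted p = 0.00672), and its EW8 value was 0.03 when libraries were scaled by total counts alone. COX6A1 (-0.23 and -0.17) and COX7B (-0.55 and -0.11) fell in EW8, and COX7B missed the threshold in TC71 (adjusted p = 0.05, rounded). COX8A was not called in either line (-0.11 and 0.07).

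Complex V held the largest part of the nuclear OXPHOS signal, with 6431 ± 173 of 12986 CPM in EW8 at 0 h. All 5 subunits of its catalytic head were downregulated in EW8, with a median of -0.44, and 4 of 5 in TC71, with a median of -0.18. ATP5F1B measured 2334, 2260 and 2381 CPM in EW8 and then 1720, 1734 and 1678 CPM. In TC71 it measured 1386, 1378 and 1372 CPM and then 1151, 1150 and 1187 CPM. It was downregulated in both lines without overlap (-0.44 and -0.25, standard errors 0.03, adjusted p = 3.39e-14 and 1.70e-07). The c ring, which turns as protons pass, is encoded by 3 genes with the same mature protein, and all 3 were downregulated in both lines. ATP5MC1 changed by -0.61 and -0.19, ATP5MC2 by -0.34 and -0.12, and ATP5MC3 by -0.58 and -0.15. ATP5MPL, a small membrane subunit, fell from 162 ± 4.43 to 106 ± 5.93 CPM in EW8 and from 125 ± 4.31 to 103 ± 4.03 CPM in TC71 (-0.61 and -0.28). ATP5IF1, the inhibitor that binds the enzyme when the proton gradient fails, measured 88.3, 84.6 and 87.0 CPM in EW8 and then 85.3, 82.7 and 84.8 CPM. It measured 135, 141 and 135 CPM in TC71 and then 137, 132 and 137 CPM, with overlapping groups and no call in either line (-0.04 and -0.02, standard errors 0.04).

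The responses of the lines were compared as an interaction. For 54 of 92 members the EW8 response was lower than that of TC71, against 22.4% of all genes, and for NDUFA11 and NDUFA13 it was higher, against 25.7%. Past 2-fold there were 0 lower members, against 0.981%, and NDUFA13 was higher, against 7.28%. The count of 2 became 1 without TC71 replicate 1 of 48 h and 0 without EW8 replicate 3 of 0 h. Nuclear genes made up 53 of the 54, and MT-ND3 was the only mtDNA gene (-0.29, standard error 0.06, adjusted p = 5.14e-04). MT-CYB (-0.39) and MT-ATP8 (-0.36) had larger differences but standard errors of 0.22, and were not called. Lack of a call in these mtDNA genes therefore does not show that the lines responded alike. The smallest p-values belonged to COX7C (-0.60, adjusted p = 1.62e-10), COX6B1 (-0.65, adjusted p = 2.09e-10) and COX5A (-0.61, adjusted p = 3.20e-10). COX5B had the most negative difference (-0.81, adjusted p = 2.05e-06). By complex, the EW8 response was lower for 18 of 36 nuclear genes in complex I, 3 of 4 in II, 6 of 9 in III, 10 of 12 in IV and 16 of 18 in V. The median difference was -0.25 over nuclear and -0.08 over mtDNA members, beside 0.04 over all genes.

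Across genes, which are not independent replicates, changes in EW8 and TC71 gave a Pearson r of 0.90 and a Spearman rho of 0.85 for the 13 mtDNA members. Over the 79 nuclear members they had an r of 0.10 and a rho of 0.33, and over 72 without those that share most of their exons an r of 0.55 and a rho of 0.48. Over all 16515 genes r was 0.70 and rho 0.63. The mtDNA genes share their precursor transcripts and vary together between libraries. In EW8, the fold change lay below that of TC71 for 70 of 79 nuclear members, 11 of 13 mtDNA members and 7725 of 16515 genes.

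**Figure D5:**
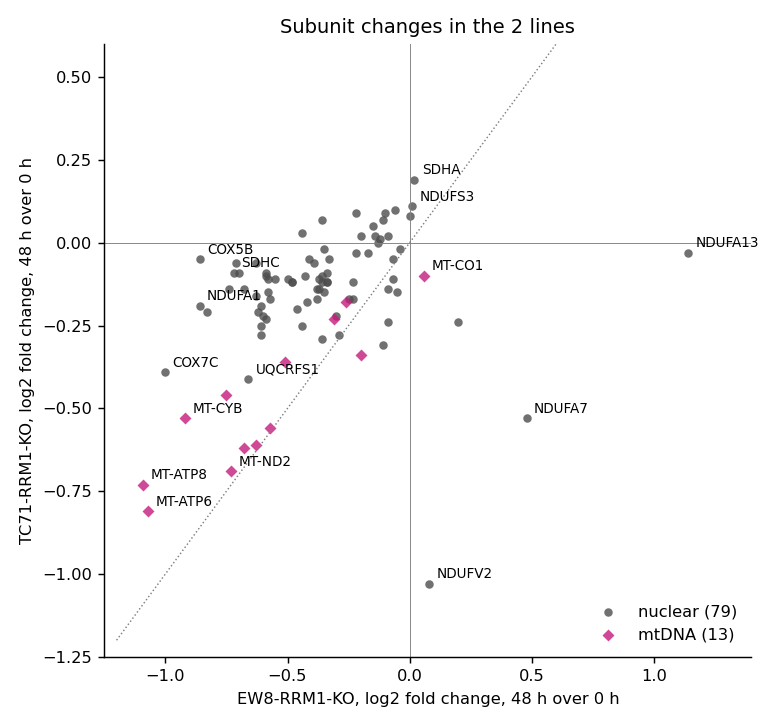
Log2 fold change of 48 h over 0 h in EW8-RRM1-KO (horizontal axis) against TC71-RRM1-KO (vertical axis) for 79 nuclear (gray circles) and 13 mtDNA (magenta diamonds) members, with equal change on the dotted line. Most nuclear members lie to the left of that line, and the mtDNA members lie closer to it. NDUFA13, NDUFA7 and NDUFV2, which stand apart, had 3 to 26 counts per library.

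With doxycycline present, OXPHOS members differed between the lines about as often as other genes. At 0 h, 59 of 92 (64.1%) were called in either direction, beside 65.7% of all genes. Of the 92, 40 were higher in EW8, against a background of 32.8%, and 19 were lower, against 32.9%. The mtDNA genes accounted for none of the former and for MT-ND2 (-0.50) and MT-ND3 (-0.43) among the latter. Libraries of the lines did not overlap for 40 members that were higher in EW8, against 34.0%, and for 21 that were lower, against 34.3%. SDHD measured 125, 117 and 129 CPM in EW8 and 62.8, 58.5 and 60.7 CPM in TC71, which was the only difference past 2-fold (log2 1.03, standard error 0.05, adjusted p = 1.25e-18, background 4.77%). NDUFA12 (0.88) and COX7C (0.86) followed. Among called members in the other direction, NDUFA13 (-0.74) and NDUFA7 (-0.72) came first, both rows of few counts, followed by ATP5IF1 (-0.66), UQCRQ (-0.65) and NDUFV3 (-0.56). The nuclear sum was 12986 ± 271 CPM in EW8 and 10713 ± 102 CPM in TC71 at 0 h, and 9905 ± 153 and 9869 ± 170 CPM at 48 h (n = 3 libraries each). This comparison shares the 0 h libraries with both responses. With libraries scaled by total counts alone, the counts were 27 higher and 31 lower.

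Several complex I rows were too low to carry weight. NDUFA13 had 10 to 25 counts per library, NDUFA7 8 to 26 and NDUFV2 3 to 19, although these are core or common accessory subunits of the enzyme. In GENCODE release 44, 90.0% of the canonical exon bases of NDUFV2, 83.9% of NDUFA13, 77.9% of NDUFA7, 72.0% of NDUFB8 and 68.2% of NDUFA11 lie in another gene on the same strand. These partner genes have no row in the table, and reads in shared exons can be left out by a counter that drops ambiguous reads. NDUFA13 measured 0.438, 0.687 and 0.305 CPM in EW8 and then 1.12, 0.852 and 0.979 CPM (1.14, standard error 0.32, adjusted p = 0.00228). NDUFV2 measured 0.596, 0.490 and 0.786 CPM in TC71 and then 0.344, 0.336 and 0.247 CPM (-1.03, standard error 0.38, adjusted p = 0.0259). Without UQCRHL and the 7 members that share over 50% of their exons, the nuclear median of complex I in EW8 was -0.34 and no nuclear gene was upregulated there. Across the 79 nuclear members, log2 transcript length and log2 fold change had an r of 0.10 in each line, with a rho of 0.20 in EW8 and 0.12 in TC71. Over the 72 without shared exons, r was 0.27 and rho 0.28 in EW8, and 0.02 and 0.08 in TC71. Over all genes with a length, r was 0.06 and 0.07. The 47 nuclear members under 1 kilobase had median log2 fold changes of -0.41 in EW8 and -0.12 in TC71, and the 32 longer ones -0.36 and -0.11. Among all genes, the 2334 under 1 kilobase had medians of -0.17 and -0.12, and the 13657 longer ones 0.06 and 0.01. The part of length in the results was not tested.

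Genes around the complexes were counted from fixed lists. CYC1 and NDUFAB1, the subunits that the name pattern misses, cytochrome c itself (CYCS) and the complex V factor DMAC2L were downregulated in both lines, by -0.43, -0.80, -0.51 and -0.54 in EW8 and by -0.15, -0.13, -0.24 and -0.24 in TC71. Of 19 complex I assembly factors, 11 were downregulated and 4 upregulated in EW8, and 10 and 2 in TC71. NDUFAF3 fell in both (-0.73 and -0.42), and NDUFAF5 and NDUFAF7 rose in EW8 (0.80 and 0.77). Complex II assembly factors gave 1 of 4 downregulated and 1 upregulated in EW8 and 1 downregulated in TC71. For complex III these were 4 and 1 of 9 in EW8 and 2 downregulated in TC71, and for complex V 2 and 1 of 5 and 1 and 1 of 5. For complex IV, 13 of 24 were downregulated and 5 upregulated in EW8, and 10 and 2 in TC71, with the copper chaperone COX17 at -0.74 and -0.20. Of 14 tricarboxylic acid cycle enzymes, 8 were downregulated and 4 upregulated in EW8, and 3 and 3 in TC71, with citrate synthase (CS) at -0.32 and -0.22. The backgrounds are the 31.6 and 37.0% in EW8 and 19.2 and 22.9% in TC71 given above.

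Of 25 tested genes for mtDNA transcription and RNA processing, 12 were downregulated and 5 upregulated in EW8, and 10 and 0 in TC71. The background for this and the next lists was 31.6% of all genes downregulated and 37.0% upregulated in EW8, and 19.2 and 22.9% in TC71. POLRMT, the mitochondrial RNA polymerase, measured 219, 252 and 230 CPM in EW8 at 0 h and 111, 96.3 and 98.2 CPM at 48 h. The TC71 values were 133, 144 and 125 CPM and then 136, 110 and 132 CPM. It was downregulated in EW8 without overlap (-1.2, standard error 0.09, adjusted p = 1.00e-07) and not called in TC71 (-0.08, adjusted p = 0.48), with a difference of -1.11 (adjusted p = 1.20e-05). TFAM, which packages mtDNA and starts its transcription, changed by -0.36 and 0.02, the latter not called. Of 18 genes for mtDNA replication and nucleotide supply, 8 were downregulated and 7 upregulated in EW8, and 7 and 6 in TC71. RRM2B, the small ribonucleotide reductase subunit used outside S phase, changed by 0.25 (adjusted p = 2.20e-04) and 0.10 (adjusted p = 0.143). Of 11 nuclear regulators of OXPHOS genes, 7 were downregulated in each line, and 2 were upregulated in EW8 and 0 in TC71. NRF1 measured 36.6, 39.9 and 40.2 CPM in EW8 and then 18.8, 19.0 and 18.7 CPM, and 31.3, 30.6 and 30.5 CPM in TC71 and then 22.7, 22 and 20.8 CPM (-1.05 and -0.50, adjusted p = 2.34e-16 and 3.44e-08). PPARGC1B, a coactivator of these promoters, changed by -1.16 and -0.41, and YY1 by -0.32 and -0.13, all called. Both upregulated regulators in EW8 were not called in TC71. MYC, a broad transcriptional activator, measured 409, 434 and 424 CPM in EW8 and then 813, 797 and 839 CPM (0.95, adjusted p = 6.31e-21), with -0.05 in TC71. GABPA, the ETS-family factor of these promoters, changed by 0.15 (adjusted p = 0.0178) in EW8 and by -0.01 in TC71.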

How the data were processed

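The authors sequenced polyA RNA of the 12 samples (RNeasy Plus, TruSeq Stranded mRNA, NovaSeq 6000) and, per the labels, used FastQC, STAR and hg38. They deposited 1 table of raw counts per gene. The counting tool, its annotation and its strand setting are not given in the sources used here. Every count column was matched to a sample by name, with none left over.

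Counts were analysed with edgeR 4.0.16 (R 4.3.3): filterByExpr with a minimum count of 10, trimmed-mean (TMM) scaling, and a robust quasi-likelihood fit of the 4 groups together over 16515 genes, with a common biological coefficient of variation of 4.17%. Calls are Benjamini-Hochberg adjusted p below 0.05. All fold changes are log2, and all adjusted p-values come from this fit, unless DESeq2 1.42.0 is named. CPM are TMM-scaled. Replicates differed by more than counting noise (chi-square per gene 2.05 to 9.48). Depth sets the precision, and low counts carry wide errors. The fit was tested on simulated data for the EW8 comparison over 15881 genes, where it recovered 64 of 100 genes changed by 0.3 on the log2 scale and 99 of 100 changed by 1, with 9 false calls. The simulated counts used the spread estimated by the fit, with changes in both directions and all other genes equal between the times. They therefore cannot show errors from scaling or from a library that stands apart.

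The members and lists were chosen with earlier results of these data known. Values were named by rule for the mtDNA members, the 3 largest changes in each direction and contrast among nuclear members with separate groups and at least 20 counts, the 3 smallest interaction p-values in each direction, members past 2-fold, isoform pairs, NDUFA4, ATP5IF1 and RRM1. The remaining members named (such as SDHB, SDHC, NDUFB4, NDUFS1, NDUFS6, UQCR10, UQCRC1, UQCRC2, ATP5F1B, NDUFA7 and NDUFA11), the ratios of gene pairs and the promoters shown were chosen after their values were seen. MT-ATP6 and MT-ATP8, which the literal suffix rule would drop, were kept. Of the list symbols, UQCC4, UQCC5, UQCC6 and FASTKD4 were found under older symbols by gene ID. Exons and coordinates are from GENCODE release 44. Alternatives were other scalings, DESeq2, other filters, the replicate block, fits by line, each library left out and stricter calls.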

Additional observations from a re-analysis of the deposited data

Results flagged for a closer look

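For 22 of the members named by rule, the response of EW8 was called different from that of TC71 (edgeR quasi-likelihood test of the interaction, adjusted p below 0.05 over 16515 genes, 3 libraries a group). Over all genes tested, 22.4% were called with a lower and 25.7% with a higher EW8 response. The naming rule itself used sizes of change and interaction p-values, so the count of 22 does not measure how common such differences are. Values are the log2 fold change in EW8 minus that in TC71, and their causes were not tested. In complex IV, the differences were -0.81 for COX5B, -0.65 for COX6B1, -0.61 for COX5A, -0.60 for COX7C, -0.44 for COX7B, -0.27 for COX7A2, -0.21 for COX4I1, -0.21 for NDUFA4 and -0.18 for COX8A. In complex V, they were -0.44 for ATP5MC3, -0.42 for ATP5MC1, -0.33 for ATP5MPL and -0.22 for ATP5MC2. In complex I, they were -0.67 for NDUFA1, -0.29 for MT-ND3 and -0.25 for NDUFA12, and 1.18 for NDUFA13, a row of 10 to 25 counts per library. In complexes II and III, they were -0.19 for SDHD, -0.17 for SDHA, -0.25 for UQCRFS1, -0.36 for UQCRH and -0.36 for its copy UQCRHL.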

How the results depend on the processing

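Over the summary results, 555 values under the alternatives stayed in their class and 67 moved, and of the values of single named members 3200 kept direction and call, 71 gained and 84 lost a call, and 2 turned direction. With libraries scaled by total counts alone, the median of all genes was 0.16 in EW8 and 0.05 in TC71. The nuclear median was then -0.24 in EW8 (complexes I to V: -0.14, -0.11, -0.27, -0.32 and -0.31) and -0.07 in TC71 (-0.04, -0.01, -0.07, -0.05 and -0.12), and the EW8 mtDNA median -0.50. That scaling also gave 4 nuclear members higher in each line, 22 lower in TC71, 4 with a higher EW8 response and 31 lower in EW8 at 0 h, and it turned COX7A2L in EW8 (0.03) and UQCRH between the lines at 0 h (-0.03). Upper-quartile factors gave -0.28 and -0.49 for complexes II and IV in EW8, -0.09 and -0.20 for II and V in TC71, and 1 nuclear member higher in TC71. With at least 10 counts in every library, complex I in EW8 had a median of -0.32. With each line fitted alone, complexes I and II in EW8 had -0.33 and -0.27, and 12 mtDNA members were lower in EW8 and 2 in TC71. DESeq2 gave 1 member with a higher EW8 response. Leaving out the members of shared exons, chosen after seeing the data, gave -0.34 for complex I in EW8, -0.09 for complex II in TC71, and 0 and 1 nuclear members higher in EW8 and TC71. A fold above 2 as well left 0 nuclear and 2 mtDNA members lower in EW8, 0 nuclear higher, 1 nuclear lower and 0 mtDNA lower in TC71, 1 higher and 0 lower in the interaction, and 1 higher and 0 lower between the lines at 0 h. An adjusted p below 0.01 left 1 nuclear higher, 23 nuclear lower and 4 mtDNA lower in TC71, and 0 with a higher EW8 response. The causes were not tested, except that stricter calls pass fewer genes by construction.

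Leaving out each library in turn, nuclear members called ranged from 1 to 2 higher and 58 to 66 lower in EW8 and from 1 to 5 higher and 25 to 41 lower in TC71. The mtDNA members lower ranged from 8 to 12 in EW8 and 4 to 9 in TC71, and a higher EW8 response from 0 to 3 members. Medians ranged from -0.33 to -0.22, -0.30 to -0.22, -0.46 to -0.38, -0.49 to -0.44 and -0.49 to -0.42 for complexes I to V in EW8, and from -0.11 to -0.03 for II and -0.18 to -0.14 for V in TC71.

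The labels share replicate numbers, but same-numbered libraries of a line did not deviate together (correlations of -0.55 to 0.00711, beside -0.256 to 0.518 for libraries of other numbers). Deviations from a mean of 3 libraries constrain each other, so this cannot tell whether the numbers pair the libraries. With the replicate block, 59 nuclear and 9 mtDNA members were lower in EW8 and 30 nuclear and 6 mtDNA members in TC71.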
